A study of Mus musculus with 3 samples.

Results

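Galanin, neuropeptide Y (NPY) and the cocaine- and amphetamine-regulated transcript peptide (CART) are neuropeptides, and 7 genes of their systems were followed: the peptide genes Gal, Npy and Cartpt and the receptor genes Galr1, Galr2, Npy1r and Npy2r. The genes were matched by symbol to the feature tables, and all 7 were found among 33696 features in each tendon library and among 35980 features in the library of dorsal root ganglia (DRG). The tendon tables pair them with Ensembl identifiers: Gal with ENSMUSG00000024907, Npy with ENSMUSG00000029819, Cartpt with ENSMUSG00000021647, Galr1 with ENSMUSG00000024553, Galr2 with ENSMUSG00000020793, Npy1r with ENSMUSG00000036437 and Npy2r with ENSMUSG00000028004. Their levels were described across neuron subtypes and other cell classes gated by marker genes, none of which is one of the 7.

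The study concerns sensory nerves and FGF1 signalling in tendon degeneration, and droplet single-cell RNA sequencing (10x Genomics) was run on 3 libraries from C57BL/6 mice, 1 per group. For the neurectomy library, the sural nerve, which carries sensation from the lower hind limb, was cut in 5 mice. After 1 week the ankle was fixed in dorsiflexion for 4 weeks, and the Achilles tendons were then taken. For the sham library, the thigh muscle of 5 mice was opened to show the nerve and the ankle was then fixed for the same 4 weeks, so both tendon groups were operated on and immobilised. The DRG library came from 18 ganglia of 6 mice at spinal levels L4 to S1, after 5 µL of AAV-PHP.S-tdTomato, a viral vector for a red fluorescent protein, had been given at 4 weeks of age into the left Achilles tendon sheath. These ganglia were taken 4 weeks later and enriched for cell bodies on a density gradient. The labels disagree on the vector, which one field calls a lentivirus, and on whether ganglia of the injected side alone or of both sides were taken. Age and sex of the tendon mice are not given in the labels used here. Animals of a group were in 1 library, so every difference below lacks a replicate check. The intervals are 95% intervals for counting error alone.

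Galanin and NPY are cut from precursors in dense-core vesicles and act on G protein-coupled receptors. GALR1 and the NPY receptors Y1 and Y2 (NPY1R and NPY2R) couple to inhibitory G proteins, which damp excitability and transmitter release, while GALR2 couples mainly to Gq. In sensory neurons galanin is known for its induction after nerve injury, as is NPY, which otherwise is best known from sympathetic neurons that innervate blood vessels. Y1 on vascular smooth muscle mediates constriction, and Y2 often sits on axon terminals. CART is a peptide of brain and sensory neurons whose receptor is not settled, with GPR160 as a proposed one.

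Promoter windows of 300 bases, from 250 before to 50 after the annotated start, were read from RefSeq (GRCm38.p6) for 6 of the 7 genes. No window was used for Galr1. The windows of Gal, Npy1r and Cartpt are shown because these 3 genes were highest in the same neurons, and that of Npy2r because it was highest in others. Capitals mark matches to a short list of motifs searched on both strands: the cyclic AMP response element TGACGTCA and its half-site TGACG, the AP-1 site TGANTCA, the TATA box TATAAA, the homeodomain core TAATTA, the E-box CACGTG and the GC box GGGCGG.
Gal: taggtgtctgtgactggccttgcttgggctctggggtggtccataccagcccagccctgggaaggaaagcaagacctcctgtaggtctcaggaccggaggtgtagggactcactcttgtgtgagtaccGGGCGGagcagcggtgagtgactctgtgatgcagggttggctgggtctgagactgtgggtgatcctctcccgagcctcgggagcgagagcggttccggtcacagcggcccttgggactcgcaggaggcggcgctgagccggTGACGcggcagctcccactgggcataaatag
Npy1r: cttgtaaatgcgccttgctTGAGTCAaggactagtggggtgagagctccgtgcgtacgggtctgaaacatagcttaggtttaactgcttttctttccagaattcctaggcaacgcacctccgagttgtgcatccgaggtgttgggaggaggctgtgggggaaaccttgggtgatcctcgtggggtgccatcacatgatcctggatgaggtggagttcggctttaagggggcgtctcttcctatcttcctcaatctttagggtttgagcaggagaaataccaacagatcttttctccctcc
Cartpt: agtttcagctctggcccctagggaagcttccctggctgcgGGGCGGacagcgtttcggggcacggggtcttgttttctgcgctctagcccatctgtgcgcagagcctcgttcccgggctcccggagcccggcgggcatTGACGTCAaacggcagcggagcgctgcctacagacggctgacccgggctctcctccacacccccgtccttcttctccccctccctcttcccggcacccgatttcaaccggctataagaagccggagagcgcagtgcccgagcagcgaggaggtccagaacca
Npy2r: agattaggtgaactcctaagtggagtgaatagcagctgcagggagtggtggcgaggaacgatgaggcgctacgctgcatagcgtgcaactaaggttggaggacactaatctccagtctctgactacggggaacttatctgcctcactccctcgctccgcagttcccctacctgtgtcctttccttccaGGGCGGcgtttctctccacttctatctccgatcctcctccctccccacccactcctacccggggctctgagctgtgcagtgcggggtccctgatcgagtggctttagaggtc
The Gal window lies at chr19:3414495-3414794 on the minus strand, the Npy1r window at chr8:66697172-66697471 on the plus strand, the Cartpt window at chr13:99900634-99900933 on the minus strand and the Npy2r window at chr3:82548036-82548335 on the minus strand. The Cartpt window held a whole cyclic AMP response element 112 bases before the start, which includes a half-site on each strand and which 1.79% of 32817 such windows held. The Gal window held a half-site 19 bases after the start, found in 20.8% of the windows, and the Npy1r window an AP-1 match 231 bases before the start, found in 7.81%. GC boxes, found in 35.6% of the windows, stood in those of Gal, Cartpt and Npy2r, and also in those of Npy and Galr2. The windows of Gal and Cartpt shared the half-site and the GC box, and that of Npy1r shared no match with them. A match is a stretch of letters and was not read as a bound site.

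After filtering, 21992 neurectomy, 25306 sham and 22384 DRG barcodes were kept, with median depths of 1347.5, 1338 and 3523.5 UMIs (unique molecular identifiers, each marking 1 captured transcript). The 2 tendon libraries shared 569 barcode sequences, 2.59% of those of the neurectomy library. DRG neurons were the deepest class, with 3517 barcodes at a median of 47280 UMIs, and all 10 neuron markers were detected in them. Levels are given as CPM, the UMIs of a gene summed over a class per 1000000 UMIs of that class. A gene is called higher in a class when its CPM was at least 2-fold that of the other gated barcodes, with 50 or more UMIs in both together and 10 CPM or more in the higher of them. A level stands for a mean over barcodes of a class, so that fewer barcodes with a transcript and fewer transcripts per barcode are told apart only where shares of barcodes are given.

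Of the 3517 neurons, 2550 fell into 10 subtype gates and 967, with a median of 7722 UMIs, fell into none. The gates were peptidergic nociceptors (610 barcodes, gated on markers that include Calca, Adcyap1 and Tac1), Mrgprd nociceptors (711), C-low-threshold mechanoreceptors or C-LTMRs (348), Trpm8 cold-sensing neurons (225), itch neurons gated on Nppb and Sst (185), A-delta peptidergic neurons gated on Bmpr1b and Kit (144), silent-type nociceptors gated on Chrna3 and Htr3a (122), A-LTMRs (53) and proprioceptor-like neurons (35). The last gate, on Mrgpra3 and its relatives (117), had only 2 of its 4 markers 2-fold higher than in other neurons and is called Mrgpra3-gated only. Its 10 leading genes held 1 of its own markers and 1 of another subtype. Over the 10 gates, 10 pairs of a gene and a subtype were called, and all of them lay in 6 gates: peptidergic, Trpm8, silent-type, itch, A-delta peptidergic and Mrgpra3-gated. The peptidergic gate, where 8.77% of all genes tested were called, held 4 of the pairs. No member was called in the Mrgprd, C-LTMR, A-LTMR or proprioceptor-like gates, in which 3.69%, 8.16%, 10.5% and 13% of genes tested were called.

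**Figure D1:**
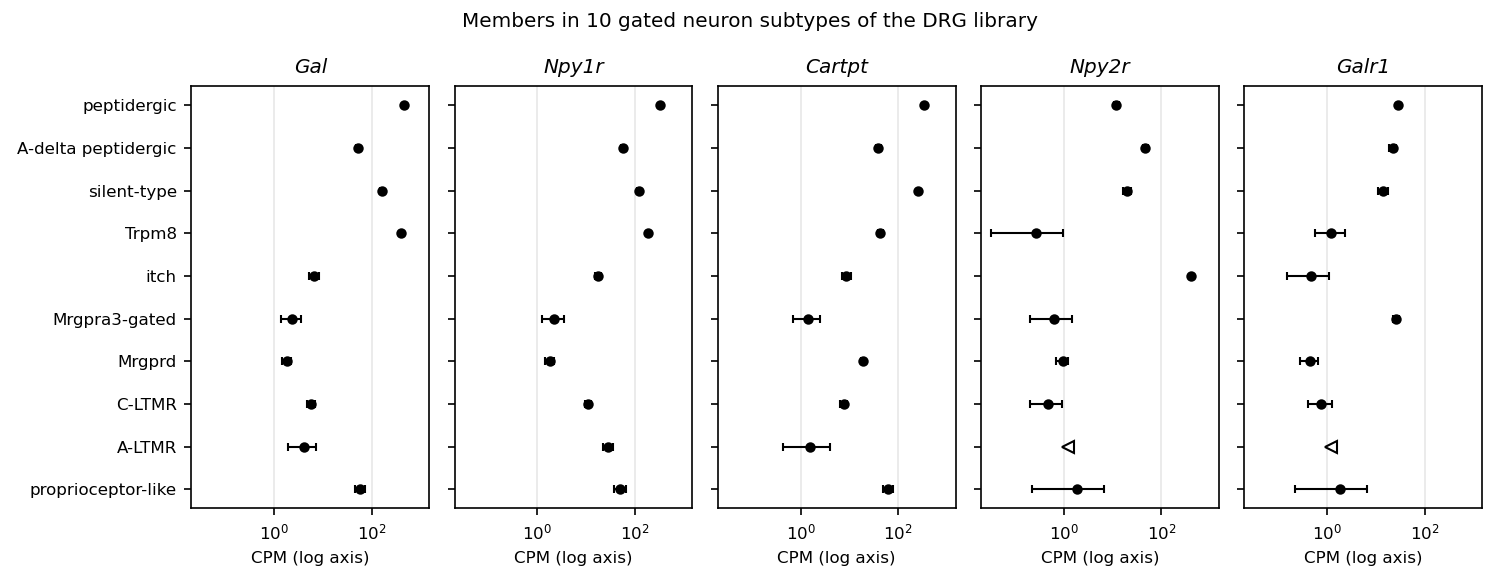
Level of 5 member genes (CPM, log axis) in the 10 gated neuron subtypes of the DRG library; points are summed levels, bars are 95% counting intervals, and open triangles mark 0 UMIs, drawn at the level of 3 counts. Gal, Npy1r and Cartpt were highest in the peptidergic gate, at 461.0, 326.6 and 344.6 CPM, and Npy2r was highest in the itch gate, at 405.5 CPM.

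Gal, the galanin precursor, was high in a pair of subtypes. Its level was 461.0 CPM (453 to 469) in peptidergic neurons and 394.5 CPM (380 to 409) in Trpm8 neurons, from 12679 and 2919 UMIs. These were 11.4-fold and 3.62-fold the levels of the other gated neurons, and 11.7% of genes tested were called in the Trpm8 gate. Silent-type neurons came next at 157.5 CPM (147 to 168). Proprioceptor-like neurons, at 57.5 CPM, and A-delta peptidergic neurons, at 51.9 CPM, overlapped in their intervals, and 44 of the 62 Gal UMIs of the proprioceptor-like gate came from 1 barcode. The other subtypes were far lower, from 6.60 CPM in itch neurons and 5.64 CPM in C-LTMRs, which overlapped, to 1.78 CPM (1.44 to 2.18) in Mrgprd nociceptors.

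The first 3 subtypes stood in the same order in the share of barcodes with a Gal UMI. It was 86.6% in peptidergic, 78.2% in Trpm8 and 44.3% in silent-type neurons, and 7.88% in the deeper Mrgprd nociceptors. With each neuron thinned to 5000 UMIs, which left out those with fewer, the first 3 shares were 70.5%, 60.3% and 30.3%. Gal was therefore found in most neurons of the peptidergic and Trpm8 gates at equal depth, and in a minority of the silent-type gate. Per barcode, peptidergic neurons with at least 5000 UMIs had a median of 4.16 Gal UMIs per 10000, with quartiles of 1.14 and 7.21 and a highest value of 25.8. Trpm8 neurons had a median of 2.84 with quartiles of 0.350 and 6.84, so some of them held little or no Gal while others matched the high peptidergic neurons. The ungated neurons had 285.7 CPM, and 880 of their 6750 Gal UMIs were in 1 barcode.

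Cartpt, the CART precursor, was called in the peptidergic and silent-type gates. Its level was 344.6 CPM (338 to 352) in peptidergic and 254.0 CPM (241 to 268) in silent-type neurons, 11.7-fold and 2.98-fold the levels of the other gated neurons; in the silent-type gate 7.73% of genes tested were called. The silent-type call was lost in barcodes with at most 5% mitochondrial UMIs, at 73.6 CPM in 42 of the 122 barcodes, and with subtypes from clusters, at 85.4 CPM. In Trpm8 neurons, where Gal was high, Cartpt was 42.8 CPM (38.3 to 47.8) and was found in 11.1% of barcodes. Cartpt was uneven from barcode to barcode: the peptidergic median was 1.41 per 10000 UMIs, with quartiles of 0 and 4.07, and 1 barcode reached 54.6 with 266 UMIs. In A-delta peptidergic neurons 90 of 242 Cartpt UMIs came from 1 barcode, and the level without it was 24.8 CPM, against 39.0 CPM with it.

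Mrgprd nociceptors had a low but clear Cartpt level of 18.6 CPM (17.5 to 19.8), with a UMI in 26.4% of barcodes, or 6.10% after thinning. In these non-peptidergic neurons Gal, Npy1r, Npy2r and Galr1 were each at 1.80 CPM or less. Cartpt was at 1.39 CPM in the Mrgpra3-gated neurons, whose median depth was 65924 UMIs, and at 8.58 and 7.56 CPM in itch neurons and C-LTMRs, whose intervals overlapped. In itch neurons 57 of the 91 Cartpt UMIs came from 1 barcode, and the level without it was 3.22 CPM.

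Npy, the NPY precursor, was scarce in the ganglia. The DRG library held 138 Npy UMIs in 30 barcodes, of which 108 were in 9 of 3517 neurons. A single neuron held 94 of them, among 31373 UMIs, and the next held 5. That neuron fell into no subtype gate and also held 29 UMIs of Atf3 and 20 of Sprr1a, genes that sensory neurons switch on after axon injury, and 57 of Nefh, a heavy neurofilament of large neurons. Without it the level over all neurons was 0.0866 CPM. Satellite glia, which wrap the neuron cell bodies, held 19 Npy UMIs in 15 of 4463 barcodes, 0.740 CPM (0.445 to 1.16).

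Npy1r, the Y1 receptor gene, followed Gal. It was at 326.6 CPM (320 to 333) in peptidergic, 186.9 CPM (177 to 197) in Trpm8 and 120.7 CPM (112 to 130) in silent-type neurons. The first was 12.0-fold and the second 2.30-fold the level of the other gated neurons. In barcodes with at most 5% mitochondrial UMIs the Trpm8 level was 85.6 CPM and no longer called, and the silent-type level was 44.7 CPM. A-delta peptidergic neurons, at 56.3 CPM, and proprioceptor-like neurons, at 49.2 CPM, overlapped; A-LTMRs had 28.2 CPM, itch neurons 17.4 CPM and C-LTMRs 10.8 CPM. Mrgpra3-gated and Mrgprd neurons were lowest and overlapped, at 2.15 and 1.80 CPM. A Npy1r UMI was found in 93.3% of peptidergic neurons, 69.3% after thinning. Per barcode the peptidergic neurons had a median of 2.78 per 10000 UMIs, quartiles of 1.40 and 4.88 and a highest value of 13.2.

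**Figure D2:**
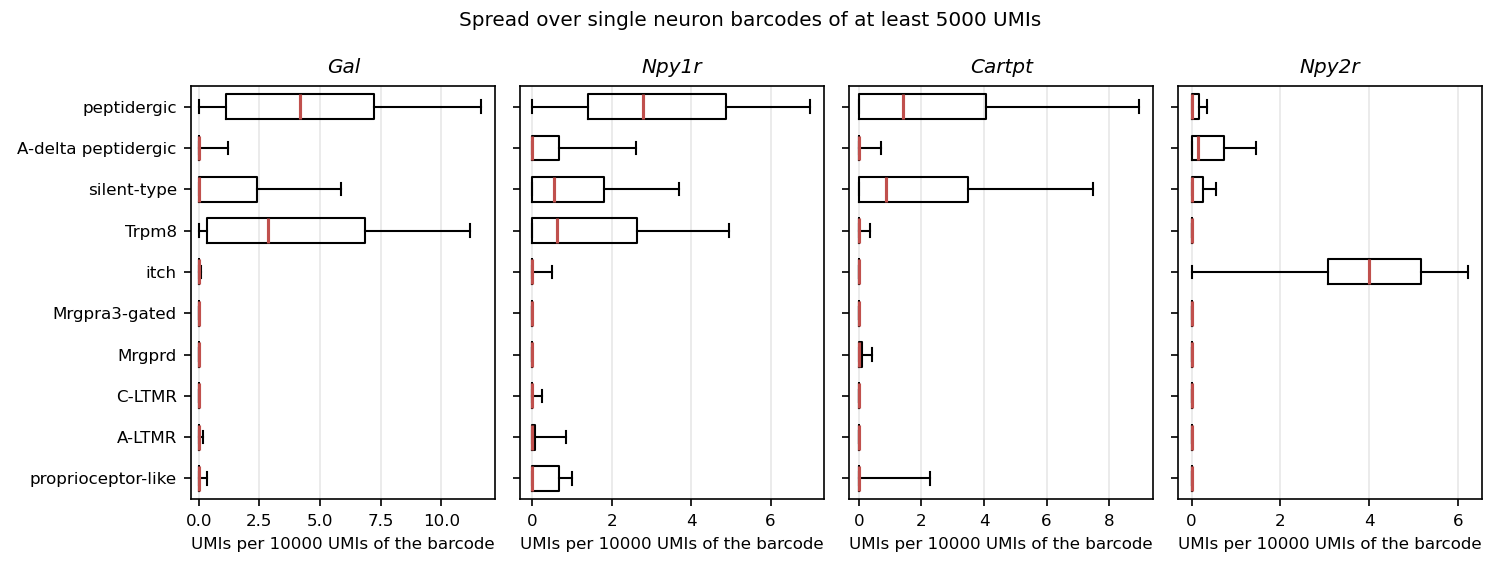
Member UMIs per 10000 UMIs of a barcode in neurons with at least 5000 UMIs, by subtype gate; boxes show quartiles with the median in red, and whiskers run from the lowest value to the 90th percentile. Nearly all itch neurons held Npy2r, with quartiles of 3.07 and 5.17, whereas Cartpt in peptidergic neurons had a lower quartile of 0.

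Npy2r, the Y2 receptor gene, had a pattern of its own. In itch neurons it reached 405.5 CPM (393 to 418), 64.9-fold the 6.25 CPM of the other gated neurons, in a gate where 6.14% of genes tested were called. A UMI was found in 98.4% of these 185 barcodes, and in 82.1% after thinning. Per barcode the median was 3.99 per 10000 UMIs with quartiles of 3.07 and 5.17, so that even the lower quartile was far from 0. Lower levels were found in A-delta peptidergic neurons, at 47.1 CPM (41.8 to 52.8) with a UMI in 48.6% of barcodes, in silent-type neurons, at 20.0 CPM (16.5 to 24.1), and in peptidergic neurons, at 11.9 CPM (10.6 to 13.3). No other subtype passed 1.86 CPM, and A-LTMRs held no Npy2r UMI, with an interval that reached 1.47 CPM.

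Galr1, a galanin receptor gene, was called in 3 gates. It was at 28.6 CPM (26.7 to 30.7) in peptidergic, 26.3 CPM (22.9 to 30.1) in Mrgpra3-gated and 22.1 CPM (18.5 to 26.1) in A-delta peptidergic neurons; neighbours in this order overlapped. These were 6.67-fold, 3.25-fold and 2.59-fold the levels of the other gated neurons, in gates where 8.77%, 2.7% and 9.43% of genes tested were called. Silent-type neurons had 13.9 CPM (11.0 to 17.4), and the other subtypes 1.86 CPM or less. Trpm8 neurons, second in Gal, had 1.22 CPM of Galr1, and the Mrgpra3-gated neurons, with Galr1 in 54.7% of barcodes, had 2.28 CPM of Gal. Galr2 had 37 UMIs in all 3517 neurons, 0.229 CPM, too few to be read by subtype.

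Gal, Npy1r and Cartpt were often found in the same barcodes. In 2982 neurons thinned to 5000 UMIs, Gal was detected in 777, and 63.8% of these (60.3 to 67.2) also held Npy1r, against 10.6% of neurons without Gal. Cartpt was found in 41.3% of the neurons with Gal and in 9.57% of those without. At this depth Npy2r went the other way: of 241 neurons with Npy2r, 8.30% held Gal, against 27.6% of the rest. Without thinning, in all 3517 neurons, the direction turned: 38.9% of 571 neurons with Npy2r held Gal, against 31.8% of the rest. The subtypes differ in all of these genes, so the shares were also taken within gates.

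Within the 583 peptidergic neurons thinned, Npy1r was found in 73.0% (68.4 to 77.2) of those with Gal and in 60.5% of those without. Cartpt was found in 48.9% and 47.1%, which did not differ beyond counting error. Npy2r was found in 2.19% (1.01 to 4.12) of peptidergic neurons with Gal and in 13.4% of those without. At the thinned depth, Npy2r was thus less often found beside Gal inside this gate too. In the 119 silent-type neurons, Cartpt was found in 75.6% (59.7 to 87.6) of those with Npy1r and in 29.5% of the rest, and Gal in 56.1% and 16.7%. The silent-type gate thus held barcodes with all of these transcripts and barcodes with none. In 219 Trpm8 neurons, Npy1r was found in 43.2% (34.6 to 52.1) of those with Gal and in 32.2% of those without.

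Over the 10 subtypes the levels of Gal and Npy1r had a Pearson correlation of 0.962 on the scale log2(CPM + 10), Gal and Cartpt of 0.854 and Npy1r and Cartpt of 0.822; Npy2r and Gal had -0.0354. The 10 points come from 1 library and share its free RNA and the gates. Among 11168 genes compared, the patterns most like that of Gal were Bex1 (0.985), Npy1r (0.962) and Zcchc12 (0.960), and most like that of Npy1r were Adcyap1 (0.971), which was itself a marker of the peptidergic gate, Kcnmb2 (0.965) and Gal. Cartpt was most like Smim3 (0.943), Wnt4 and Tcfl5, Npy2r most like Ptgr1 (0.973), Npepps and 9130409J20Rik, and Galr1 most like Tmem167b (0.932), Slc1a6 and Fam171a2. For Npy no likeness is given, since the 10 gates held 6 of its UMIs in all.

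A list of nerve injury genes was read beside Gal and Npy. Of 10 genes, 7 were tested in the peptidergic gate and 3 were called, where 8.77% of all genes tested were: Jun, Gap43, which builds growth cones, and Csf1, a cytokine that recruits microglia. In the itch gate, 3 of 6 tested were called, against 6.14% of all genes tested. Among them was Atf3, at 388.9 CPM against 63.7 CPM in the other gated neurons. In the Trpm8 gate, where Gal was also high, 0 of 7 tested were called, with a median of 1.39-fold. The counts were 2 of 7 in A-delta peptidergic, 1 of 7 in silent-type and 1 of 6 in Mrgpra3-gated neurons. No gene of the list was called in the A-LTMR, C-LTMR, Mrgprd or proprioceptor-like gates. Sprr1a and Ecel1, which are little expressed in intact sensory neurons, were found together in 11 neurons (at least 2 and 1 UMIs), a set chosen after values had been seen, and all 11 were ungated. In these 11, Gal was at 1540 CPM (1451 to 1633), against 141.5 CPM in the other neurons. The 11 barcodes held 225, 75, 229, 222, 111, 118, 1, 12, 123, 2 and 1 Gal UMIs, so 7 were high and 4 were low. Summed over them, Npy1r was 34.4 CPM against 88.1 CPM, and Cartpt was 106.0 CPM (83.6 to 132) against 100.4 CPM. Both sums rested on few barcodes. In the same order, the 11 barcodes held 13, 2, 0, 0, 0, 0, 0, 9, 0, 0 and 1 Npy1r UMIs. They held 3, 25, 0, 0, 0, 0, 3, 12, 0, 33 and 1 Cartpt UMIs. The neuron with the most Gal, 880 of 57240 UMIs, was not one of them: it held no Sprr1a UMI, but 250 of Gap43 and 53 of Sox11.

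The vector transcript was read as a mark of neurons that held the vector. At least 2 of its UMIs were found in 252 of 3517 neurons, 7.17%, and the share was 22.2% in A-delta peptidergic, 17.9% in Mrgpra3-gated, 17.2% in silent-type and 7.21% in peptidergic neurons. Gal was at 95.5 CPM in these 252 neurons and at 154.0 CPM in the 3157 without a vector UMI, Npy1r at 71.0 and 89.6 CPM, Cartpt at 80.8 and 100.9 CPM, Npy2r at 30.2 and 34.0 CPM and Galr1 at 13.1 and 9.25 CPM. These differences mix the subtypes. Within the peptidergic gate, Gal (459.9 and 463.2 CPM) and Npy1r (326.9 and 324.7 CPM) were nearly equal with and without the vector, and Cartpt was 244.3 CPM against 353.9 CPM. Within the A-delta peptidergic gate, 32 vector neurons had 5.36 CPM of Gal (2.32 to 10.6), from 8 UMIs in 5 barcodes, and 105 neurons without it had 71.3 CPM (63.7 to 79.7), from 314 UMIs in 26 barcodes. Npy2r in the same gate was 57.0 CPM (45.5 to 70.5) in vector neurons and 41.8 CPM (36.0 to 48.3) in the others.

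Genes for peptide processing were set beside the members. Of 11 such genes, 9 were called in neurons over the other DRG classes, where 26.6% of all genes tested were called, with a median of 38.6-fold. Pcsk1n, Scg2, a granin of dense-core vesicles, and Cadps, which primes those vesicles, were at 1864, 358.0 and 598.0 CPM in neurons against 53.7, 3.85 and 11.2 CPM in all other barcodes, while Cpe and Pam, which trim and amidate peptides, did not reach 2-fold. Across subtypes Scg2 was called in 3 of the 6 gates in which members were called, at 860.9 CPM in peptidergic, 800.8 CPM in itch and 663.3 CPM in Trpm8 neurons. It was not called at 649.3 CPM in A-delta peptidergic, 521.3 CPM in silent-type and 107.7 CPM in Mrgpra3-gated neurons, and it was at 31.4 CPM in Mrgprd nociceptors. Pcsk1, a convertase that cuts precursors, was called in A-delta peptidergic (183.5 CPM), silent-type (145.0 CPM) and peptidergic (87.0 CPM) neurons. Of the 11 genes, 2 were called in peptidergic, 2 in Trpm8, 1 each in itch, silent-type and A-delta peptidergic and 0 in Mrgpra3-gated neurons. In these gates 2.7% to 11.7% of all genes tested were called. Gates without a called member were similar, with 2 in A-LTMRs, 2 in proprioceptor-like neurons, 1 in Mrgprd nociceptors and 0 in C-LTMRs. There 3.69% to 13% of all genes tested were called.

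Of 8 genes for inhibitory G proteins and the potassium channels they open, 5 were tested in neurons against other classes and 2 were called, where 26.6% of all genes tested were and the median of the 5 was 0.811-fold: Gnao1, the neuronal G alpha o, at 726.5 against 22.5 CPM, and Kcnj3 at 25.1 against 0.600 CPM. Other channel subunits marked single subtypes, with Kcnj6 at 38.3 CPM in C-LTMRs and Kcnj9 at 14.9 CPM in Trpm8 neurons. Of 10 other ligands and receptors of these systems and the protease Dpp4, 1 was tested in any subtype. This was Gpr160, at 21.8 CPM in itch and 12.6 CPM in peptidergic neurons and called in both. Npy5r reached 2.98 CPM in peptidergic neurons, and Galr3, Npy4r, Npy6r, Ppy and Pyy had 3, 0, 0, 1 and 1 UMIs in all neurons. Of 5 sympathetic markers none was tested in neurons, and Slc6a2 had 0 UMIs there.

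Outside neurons, 5 members were far lower in the ganglia. Gal was at 147.7 CPM in neurons and 2.09 CPM in the other gated classes together, Cartpt at 100.4 and 1.04 CPM, Npy2r at 33.5 and 0.331 CPM and Npy1r at 87.9 and 8.95 CPM, and these 4 were called in neurons. Galr1 was at 9.62 CPM in neurons, under the minimum of 10 CPM for a call, and had 6 UMIs in all other barcodes. Transcripts of neuron markers in the other classes, a guide to free RNA in droplets, were at 1.40% to 9.12% of their level in neurons. Gal in satellite glia (1.40 CPM, 0.949% of neurons) and myelinating Schwann cells (2.08 CPM, 1.41%), and Cartpt (1.05 and 1.10 CPM) and Npy2r (0.156 and 0.329 CPM) there, lay below the share of the neuron markers in the same classes (1.74% and 3.67%) and were read as background.

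**Figure D3:**
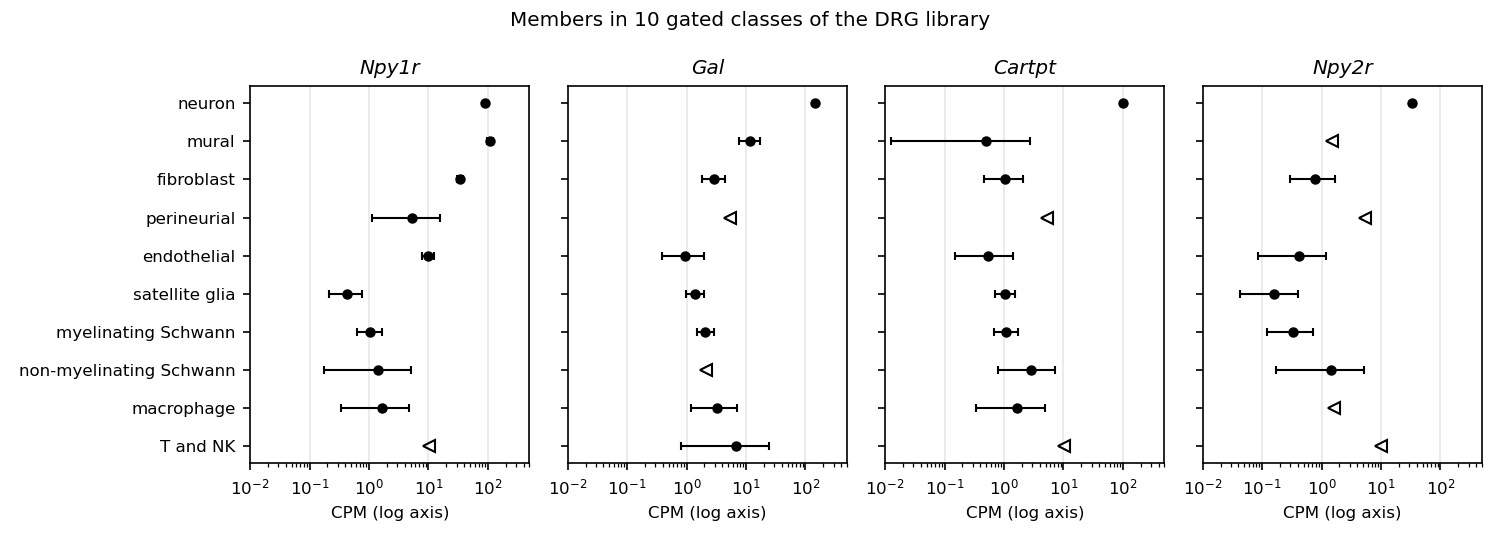
Level of member genes (CPM, log axis) in the gated classes of the DRG library; points are summed levels, bars are 95% counting intervals and open triangles mark 0 UMIs, drawn at the level of 3 counts. Npy1r was at 108.9 CPM in mural cells and 87.9 CPM in neurons, while satellite glia had 0.428 CPM.

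Npy1r was the exception among the members. Mural cells, the smooth muscle cells and pericytes of vessels, had 108.9 CPM (95.04 to 124) from 222 UMIs, a level 124% of that in neurons, although neuron markers were at 2.39% there. Among non-neuronal classes this was 18.8-fold the level of the rest, and 14.1% of genes tested were called. Npy1r was found in 153 of 662 mural barcodes, 23.1%, and in 9.30% at 1000 UMIs, against 0.224% of satellite glia, or 0.0898% at 1000 UMIs. DRG fibroblasts had 34.2 CPM (30.1 to 38.6) from 260 UMIs, 38.9% of the neuron level against 2.78% for the neuron markers, and were called in a class where 13.2% of genes tested were. Endothelial cells had 10.0 CPM (7.84 to 12.6), and satellite glia 0.428 CPM.

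Mural barcodes with the smooth muscle gene Myh11 but not the pericyte genes Kcnj8 or Abcc9 had 117.2 CPM of Npy1r (99.3 to 137), and those with Kcnj8 or Abcc9 but not Myh11 had 94.5 CPM (66.9 to 130), which overlapped. A further 2 pairs were called on few UMIs: Gal in mural cells, at 11.8 CPM from 24 UMIs in 13 barcodes, 6 of them in 1, and Gal in B cells, from 2 UMIs in 61 barcodes, where 30.4% of genes tested were called. Neither was called without its leading barcode. Gal was at 7.97% of its neuron level in mural cells and 10.4% in B cells, beside 2.39% and 9.12% for the neuron markers. Galr2, almost missing from neurons, had 17 UMIs in fibroblasts (2.23 CPM, 1.30 to 3.58) and 3 in perineurial cells. Npy, scarce in all of the ganglia, was at 138% of its neuron level in fibroblasts and 111% in satellite glia.

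In tendon, few UMIs of Gal, Galr1 and Cartpt were found. Over all kept barcodes of the neurectomy and sham libraries, Gal had 29 and 13 UMIs, Galr1 2 and 2, and Cartpt 2 and 0. Npy had 2392 and 1797 UMIs, Npy1r 312 and 663, Galr2 266 and 635 and Npy2r 121 and 189. Npy and Npy1r were called in gates of both libraries, Npy2r in 1 gate of the sham library and Galr2 in none. A gate on neuron markers took 119 and 114 barcodes, but it was led by Stmn2, Uchl1 and Sfrp4, with 2 of 10 neuron markers 2-fold higher, so it is called the Stmn2 and Uchl1 gate and not a neuron class. A gate on Spp1, Ibsp and Bglap likewise rested on Spp1 and Ibsp alone and is called by those genes.

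**Figure D4:**
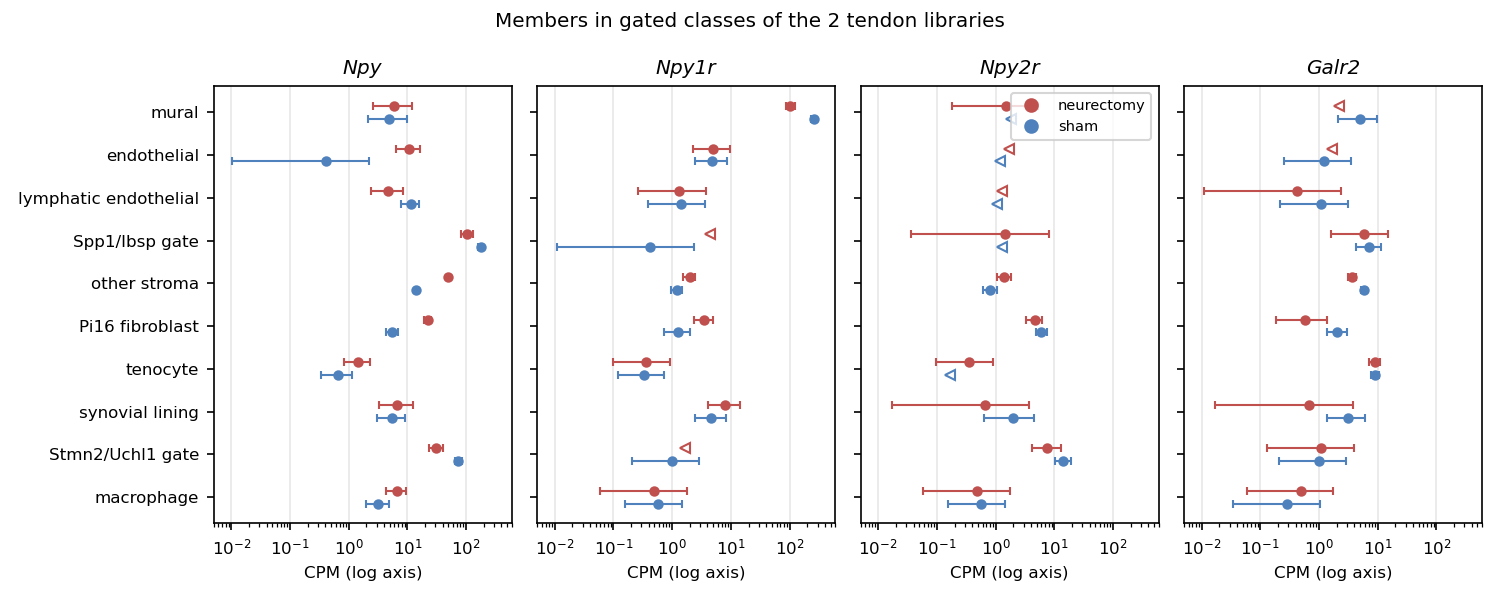
Level of Npy, Npy1r, Npy2r and Galr2 (CPM, log axis) in the gated classes of the neurectomy and sham tendon libraries, with 95% counting intervals; open triangles mark 0 UMIs, drawn at the level of 3 counts. Npy1r stood out in mural cells of both libraries, at 103.7 and 257.4 CPM, and Npy in other stroma was at 48.5 CPM in the neurectomy and 14.1 CPM in the sham library.

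Npy1r in tendon was a gene of mural cells, as it was in the ganglia outside neurons. Mural cells had 103.7 CPM (87.1 to 122) in the neurectomy library, from 139 UMIs in 63 of 486 barcodes, and 257.4 CPM (233 to 283) in the sham library, from 418 UMIs in 116 of 506 barcodes. All other gated classes together had 1.92 and 1.21 CPM, and 10.1% and 10.9% of genes tested were called in the mural gate of each library. Within the gate, barcodes with Myh11 and without Kcnj8 or Abcc9 had 161.9 and 386.2 CPM, and those with Kcnj8 or Abcc9 and without Myh11 had 37.2 and 59.5 CPM. The latter levels rested on 8 UMIs in 5 barcodes (16.1 to 73.3 CPM) and 6 UMIs in 3 barcodes (21.8 to 129 CPM). Barcodes with both kinds of marker had 120.5 and 178.8 CPM, and those with neither had 16.1 and 29.0 CPM. In both tendon libraries the barcodes with Myh11 alone were thus higher than those with Kcnj8 or Abcc9 alone.

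Between the tendon libraries, the mural Npy1r level after neurectomy was 0.403 (0.330 to 0.489) of that after sham surgery. In this class 6.13% of genes tested were at least 2-fold apart, and 2.55% were lower after neurectomy. The share of mural barcodes with Npy1r was 13.0% against 22.9%, and 5.68% against 13.5% at 1000 UMIs. The gate was not made of the same clusters in each library. A mural cluster led by Myh11, Tagln and Acta2 held 39 barcodes of the gate after neurectomy and 87 after sham surgery, with 76 of the 139 and 347 of the 418 UMIs, at 400.1 and 524.6 CPM. In the largest cluster of the gate, with 189 and 157 barcodes, the ratio was 0.896 (0.520 to 1.55), whose interval includes 1. The libraries also differed in sex-linked transcripts: the sham library held 2027 barcodes with a Y-linked UMI and no Xist, the transcript of the inactive X chromosome, and the neurectomy library held 11. In mural barcodes with Xist and no Y-linked UMI, Npy1r was 116.5 CPM in 325 neurectomy barcodes and 141.3 CPM in 157 sham barcodes, a ratio of 0.825 (0.625 to 1.09) whose interval includes 1. The 85 sham mural barcodes with Y-linked UMIs and no Xist had 473.3 CPM (416 to 536). Which mice were of which sex is not given in the labels used here, and neurectomy cannot be told apart from animal or sex.

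**Figure D5:**
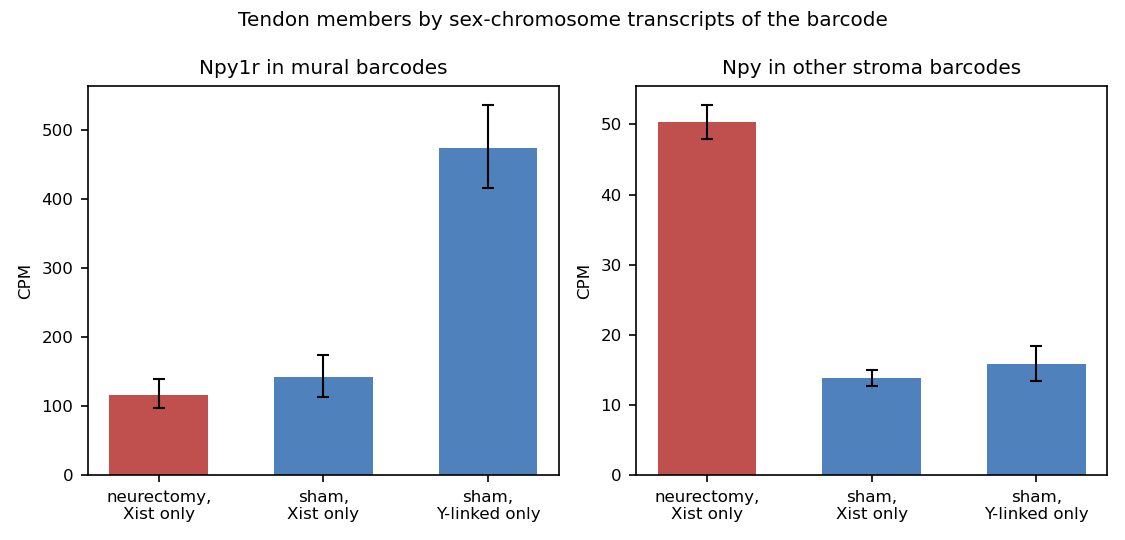
Level (CPM) of Npy1r in mural barcodes and of Npy in other stroma barcodes of the tendon libraries, with 95% counting intervals. Bars show barcodes with Xist and no Y-linked UMI in both libraries. For the sham library, barcodes with Y-linked UMIs and no Xist are also shown. In barcodes with Xist and no Y-linked UMI, Npy1r in mural cells was at 116.5 and 141.3 CPM, and Npy in other stroma was at 50.3 CPM after neurectomy and 13.8 CPM after sham surgery.

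Most Npy UMIs of both tendon libraries were in stromal gates. Over all barcodes it was at 30.7 CPM in 826 of 21992 neurectomy barcodes and at 14.0 CPM in 464 of 25306 sham barcodes, a ratio of 2.20 (2.07 to 2.34), where 1.25% of genes tested were at least 2-fold apart and 0.873% higher after neurectomy. Other stroma, the fibroblast barcodes outside the tenocyte, Pi16 and synovial gates, had 48.5 CPM from 1864 UMIs in 597 of 13242 neurectomy barcodes and 14.1 CPM from 931 UMIs in 289 of 16298 sham barcodes. The ratio was 3.44 (3.17 to 3.72), in a class where 2.84% of genes tested were 2-fold apart and 2.04% were higher after neurectomy. In the neurectomy library this class was also called over the other gated classes, which together had 12.7 CPM, and 0.878% of genes tested were called. The class lay in different clusters in each library. The cluster with the most sham barcodes of it had 874 neurectomy and 7941 sham barcodes, with a ratio of 3.16 (2.07 to 4.73), and the one with the most neurectomy barcodes had 5137 and 1501, with a ratio of 1.64 (1.22 to 2.23). These clusters held 34 and 310 of the 1864 neurectomy UMIs. A cluster led by Pappa, Sfrp4 and Il1rl1 held 992 of them, and 267 of the 931 sham UMIs. It had 301 and 295 barcodes of the class, with a ratio of 4.34 (3.79 to 4.98). Another, led by Spp1 and Ibsp, held 60 neurectomy and 362 sham UMIs, with a ratio of 0.843 (0.630 to 1.11). Of 13 clusters with at least 50 such barcodes in each library and any Npy UMI in them, the level was higher after neurectomy in 8. Among these 8 was a cluster with 2 UMIs after neurectomy and 0 after sham surgery. The interval lay above 1 in 6 and below 1 in 0. In other stroma barcodes with Xist and no Y-linked UMI the ratio was 3.64 (3.31 to 4.01), beside 3.44 in all barcodes of the class. Here too, neurectomy cannot be told apart from animal or sex. Sham stroma with Y-linked UMIs and no Xist had 15.8 CPM. At equal depth of 1000 UMIs, Npy was found in 3.40% of neurectomy and 0.902% of sham barcodes of other stroma.

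Pi16 fibroblasts, a fibroblast class of the outer connective tissue, had 22.1 CPM (191 UMIs, 67 of 1655 barcodes) after neurectomy and 5.46 CPM (74 UMIs, 27 of 1600 barcodes) after sham surgery, a ratio of 4.05 (3.08 to 5.37), with 1.35% of genes tested 2-fold apart and 0.877% higher. A single barcode held 32 of the 74 sham UMIs and 1 held 38 of the 191 neurectomy UMIs. With classes taken from clusters in place of gates, its direction turned, with a log2 ratio of -0.26 against 2.02, so the Pi16 value depends on where the class is drawn. Tenocytes, the tendon's own cells gated on Tnmd and Scx, had almost no Npy, 1.43 and 0.662 CPM.

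The Spp1 and Ibsp gate had the highest Npy level of a tendon gate, 103.5 CPM (71 UMIs, 21 of 212 barcodes) after neurectomy and 176.1 CPM (415 UMIs, 41 of 350 barcodes) after sham surgery. In both libraries it was called over the other classes, which had 30.7 and 11.2 CPM, and 5.18% and 4.65% of genes tested were called. Single barcodes held 35 of the 71 and 196 of the 415 UMIs, and without them the levels were 58.6 and 97.6 CPM, so the call was lost in the neurectomy library. The ratio of the libraries was 0.588 (0.450 to 0.758), the opposite direction to other stroma, and 0.466 (0.355 to 0.604) in barcodes with Xist and no Y-linked UMI. Without the barcodes of the highest doublet scores the direction turned, to a log2 ratio of 0.33 against -0.77. The Stmn2 and Uchl1 gate had 30.5 CPM (56 UMIs) after neurectomy and 73.9 CPM (222 UMIs) after sham surgery, a ratio of 0.413 (0.303 to 0.556), with 3.44% of genes tested 2-fold apart and 2.06% lower after neurectomy; 60 of the 222 UMIs were in 1 barcode. In the sham library Npy and Npy2r were called in this gate over the other classes, which had 12.9 CPM of Npy and 1.22 CPM of Npy2r, and 3.45% of genes tested were called. Small counts outside stroma went both ways: the ratio was 0.416 (0.189 to 0.848) in lymphatic endothelial cells, from 11 and 32 UMIs, and 2.09 (1.14 to 3.85) in macrophages, from 27 and 22 UMIs.

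Unsupervised clusters of the tendon barcodes placed Npy more narrowly. A cluster led by Pappa, Sfrp4 and Il1rl1 held 1124 Npy UMIs in 97 of 420 neurectomy barcodes, 144.8 CPM (136 to 154), and 485 in 57 of 406 sham barcodes, 49.7 CPM. Npy was itself among its 10 leading genes. A further 3 small clusters of 79, 42 and 33 neurectomy barcodes had 338.0, 430.0 and 399.8 CPM, the first led by proliferation and vessel genes and the others by Sfrp4 and Il1rl1 or Pappa and Cadps. The members were left out of the clustering, but these clusters were picked after their values had been seen, so the values are a description. Outside stroma, endothelial Npy was 19 UMIs after neurectomy (10.6 CPM) and 1 after sham surgery, and skeletal muscle barcodes of the neurectomy library had 70.1 CPM from 28 UMIs, against 31.1 CPM in the other classes, and 6.27% of genes tested were called there. Without 1 barcode the level was 60.7 CPM and no longer called, and the sham library had 34 such barcodes with no Npy UMI.

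Over all barcodes of the neurectomy and sham libraries, Galr2 was at 3.42 and 4.93 CPM and Npy2r at 1.56 and 1.47 CPM. Galr2 was highest by gate in tenocytes, at 8.92 CPM (7.26 to 10.9; 100 UMIs) after neurectomy and 8.88 CPM (7.56 to 10.4; 161 UMIs) after sham surgery, a ratio of 1.00 (0.775 to 1.30). The Spp1 and Ibsp gate had 5.83 and 7.22 CPM of Galr2 from 4 and 17 UMIs, too few to set tenocytes apart from it. In tenocytes the counts were larger. Galr2 was found in 86 of 1215 and 132 of 1665 tenocyte barcodes, and a tenocyte cluster led by Chad, Wif1 and Kera had 10.0 and 9.08 CPM. In other stroma it was 3.69 and 5.79 CPM, a ratio of 0.638 (0.522 to 0.775), under the 2-fold rule. Npy2r was 4.63 and 6.05 CPM in Pi16 fibroblasts, a ratio of 0.765 (0.511 to 1.13) whose interval includes 1, and 7.63 and 14.3 CPM in the Stmn2 and Uchl1 gate. Dpp4, whose protease shortens NPY so that it no longer acts on Y1, was at 60.6 and 48.6 CPM over all tendon barcodes and at 169.2 and 153.3 CPM in Pi16 fibroblasts.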

How the data were processed

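The authors deposited raw counts, whole numbers of UMIs for each gene in each barcode; per the file headers Cell Ranger 8.0.1 wrote them. Both mm10 and GRCm39 appear as builds in the submitters' processing notes and neither is tied to a library, so coordinates are printed for the RefSeq windows alone. The annotation release was not given in the sources used here. In the DRG table genes have symbols only.

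Barcodes under 500 genes or over 15% mitochondrial UMIs were left out. Of 23566 DRG, 25067 neurectomy and 32951 sham barcodes deposited, with 239515477, 79750679 and 133570956 UMIs, 22384, 21992 and 25306 remained. In the DRG library, classes and neuron subtypes were gated by the mean of log-scaled marker levels, each capped at a high percentile (99.9 for classes, 95 for subtypes), with a score of at least 0.25 or 0.3 above the median and a lead of 0.1 over the next. In tendon, a class needed 3 marker UMIs from 2 markers, 4-fold over the library's level and 2-fold over the next class, or 1.5-fold for both in stromal classes. The members, lists and markers were chosen with earlier results of these data known, and gate thresholds were set after seeing the data. No doublets were removed in the main values; the 8% of barcodes with the highest score against simulated doublets were left out as an alternative. In the mural, endothelial, Pi16 and tenocyte gates of tendon many barcodes lay near the threshold, 157 of 486 mural barcodes after neurectomy and 158 of 506 after sham surgery.

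UMIs were summed per class and scaled to CPM, with exact Poisson intervals for levels, Clopper-Pearson intervals for shares and conditional binomial intervals for ratios, all at 95%. With 1 library per group there was no test. A level of 0 was set against 3 counts. Shares were also taken after thinning to 5000 UMIs in neurons and 1000 elsewhere. All 7 members are named; genes of 4 lists of related genes and of a list of sympathetic markers are named as called, highest or at 0, except where a gene is not reported here, and for likeness the 3 genes with the highest correlation. Alternatives were other filters on genes, mitochondrial UMIs and depth, the mean over barcodes, a doubled gate lead and clusters (Leiden) in place of gates. The ratio calculation was tested on simulated data. Python 3.11.15, numpy 2.4.6, scipy 1.17.1, pandas 2.3.3, igraph 0.11.9 and matplotlib 3.10.9 were used.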

Additional observations from a re-analysis of the deposited data

How the results depend on the processing

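The count of gene and subtype pairs called in DRG neurons, 10 in the main analysis, was between 8 and 10 under 8 alternatives. With at most 5% mitochondrial UMIs, Cartpt in silent-type neurons (73.6 CPM, 42 of 122 barcodes left) and Npy1r in Trpm8 neurons (85.6 CPM, 120 of 225 left) were no longer called; with subtypes from clusters, Cartpt in silent-type neurons was 85.4 CPM. The count of pairs 2-fold apart between the tendon libraries was 4, and 11 when 20 UMIs in both libraries together were enough and no CPM minimum was set. The looser rule also called more of all genes. The share rose from 1.35% to 5.37% in Pi16 fibroblasts and from 6.13% to 9.23% in mural cells. It rose from 3.44% to 6.95% in the Stmn2 and Uchl1 gate and from 2.84% to 8.13% in other stroma. The added pairs include Npy in endothelial, lymphatic endothelial, macrophage and tenocyte barcodes. The share of all genes in those classes is not given here, so these added pairs were not read as results. The share of itch neurons with Npy2r was 82.1% when thinned to 5000 UMIs. The log2 ratio of Npy in Pi16 fibroblasts turned to -0.26 with classes from clusters. That of Npy in the Spp1 and Ibsp gate was 0.33 without the barcodes of the highest doublet scores, against -0.77, and that of Npy1r in mural cells -0.28 with Xist and no Y-linked UMI, against -1.31. The cause of these changes was not tested. Of the other single values, 184 stayed within their counting interval and 92 moved. Leaving out the leading barcode, taking tendon classes from clusters, the Xist selection leaving out shared barcodes and ratios within clusters were chosen after seeing the data. Depth limits Galr2, Npy in neurons and every Gal, Galr1 and Cartpt value of tendon. No paired analysis was possible because each group had 1 library.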
